A study of Mus musculus with 8 samples.

Results

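Gene expression was compared between DNCB-treated mouse skin that received HY209 gel and DNCB-treated skin that received vehicle. DNCB (1-chloro-2,4-dinitrobenzene) is a hapten that sensitizes skin on contact. It was put on the backs of Balb/c mice for 15 days as a model of atopic dermatitis. During the last 7 of those days the skin was given vehicle or HY209-PEG gel at 5%. The members were all 45037 probe sets that are not controls, of 45101 in the table, on the 6 arrays whose titles name DNCB without HY209 (vehicle arrays 1 to 3) or with it (HY209 arrays 1 to 3), of 8 arrays in all. The other 2 arrays were sham skin, and they entered only the estimate of the spread and a few levels given for background. The protocol fields of the sham samples repeat the DNCB text, and only their titles and source names mark them as untreated. The tissue is labelled skin, and age and sex were not used here. Whether the 3 arrays of a group are 3 mice is not stated, and the p-values cover only the spread between these samples, which may be technical.

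HY209 is described as an agonist of GPCR19 (Gpbar1), a bile acid receptor that signals through cAMP and is best known on macrophages and on cells of the gut and gall bladder. In dermatitis the dermis fills with leukocytes that leave widened vessels, fibroblasts lay down and remodel collagen, and keratinocytes of the epidermis divide faster and switch on keratins of wounded skin. The comparison is therefore described for stroma, vessels, myeloid cells and epidermis in turn. Whole skin was measured, so fewer cells of a type and less RNA per cell cannot be told apart in any of the values.

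Each value is a log2 signal as deposited by the authors, so that 1 unit is a factor of 2, and differences are HY209 minus vehicle, each the mean of 3 arrays. After a filter on dim probe sets, 12420 genes were tested with limma. No gene passed an adjusted p of 0.05 (0 of 12420, percent called 0), and the smallest adjusted p was 1.00 after rounding. At an unadjusted p under 0.05, 130 genes were lower with HY209 (1.05% of those tested) and 31 were higher (0.250%). Every HY209 array lay below every vehicle array for 269 genes (2.17%) and above for 351 (2.83%). The difference was below 0 for 43.0% of genes, the median difference was 0.03, and 95.7% of genes lay within 0.5 of 0. Without a filter, 0 of 45037 probe sets passed, with 485 lower (1.08%) and 201 higher (0.446%) at an unadjusted p under 0.05 and 1266 lower (2.81%) and 1155 higher (2.56%) without overlap. These shares of all genes are the background for every count of list members below 0 or without overlap. Members of a list can rise and fall together on an array, so such counts are not counts of independent observations. The lists were also chosen with earlier results of these data known. For a gene that passed the filter through the vehicle arrays alone, the filter itself favoured a lower value with HY209. For one that passed through the HY209 arrays alone it favoured a higher value. There were 37 and 14 such genes among the 12420. Those in the 4 compartments, named by this property, were Mfap5, Kcnj8, Vegfc, Ccl12 and Sprr2f, all through the vehicle arrays, and their differences support nothing. They stay in the counts of their lists, and Vegfc alone of them is also counted as without overlap. None of the differences given for single genes passed the test, and words such as lower and higher describe means only. With 3 arrays against 3, an exact permutation test of a single value cannot give a two-sided p below 0.1.

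The arrays within a group differed from each other. Degraded RNA raises the Gapdh signal at the 3' end relative to the 5' end, and this ratio was 2.79, 2.10 and 7.35 on vehicle arrays 1 to 3 and 3.24, 2.62 and 2.31 on HY209 arrays 1 to 3. Vehicle array 3 stood apart by this ratio. The same ratio for Actb was 5.48, 3.69 and 8.41 with vehicle and 6.43, 6.23 and 5.94 with HY209. Vehicle array 3 was again the highest, and all HY209 arrays lay above vehicle arrays 1 and 2. Bacterial spike-in probes had mean log2 signals of 10.71, 9.25 and 10.83 with vehicle and 10.89, 9.97 and 9.87 with HY209. Keratinocyte genes were bright on all arrays, with Krt14, the basal keratin, at 12.78 to 14.22 (a gene named after its values were seen). Skeletal muscle genes were bright as well, with the skeletal muscle actin Acta1 (also named after its values were seen) at 10.05 on vehicle array 3 and 12.44 to 12.91 on the other DNCB arrays, so the samples held muscle RNA.

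Stromal genes had the lowest median of the 4 compartments. Of 84 listed genes for collagens, other matrix proteins, matrix processing, fibroblast identity and matrix proteases, 73 were measured, 5 lay below the filter and 6 had no probe set listed under their symbol alone. The difference was below 0 for 71 of the 73, with a median of -0.64, against 43.0% of all genes and a median of 0.03. Vehicle array 3 was the lowest vehicle array for 58 of the 73 genes, and HY209 array 1 the lowest HY209 array for 44. The 73 genes are therefore not independent observations. The groups did not overlap for 12 (16.4%), all lower with HY209, against 2.17% of all genes. The mean log2 signal of the 73 genes was 7.05, 7.46 and 6.47 on vehicle arrays 1 to 3 and 6.05, 6.49 and 6.56 on HY209 arrays 1 to 3, beside 6.07 and 6.36 on the sham arrays. Vehicle arrays 1 and 2 lay above all HY209 arrays, and vehicle array 3 lay among them. Vehicle array 3 was below the highest HY209 array for 56 of the 73 genes, vehicle array 1 for 21 and vehicle array 2 for 8. Without vehicle array 2 the median was -0.40, and without vehicle array 3 it was -0.85. Over all 6 omissions of an array it ran from -0.85 to -0.40, and 64 to 72 genes were below 0. Of 36 genes with several probe sets past the filter, 34 had all of them below 0.

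**Figure D1:**
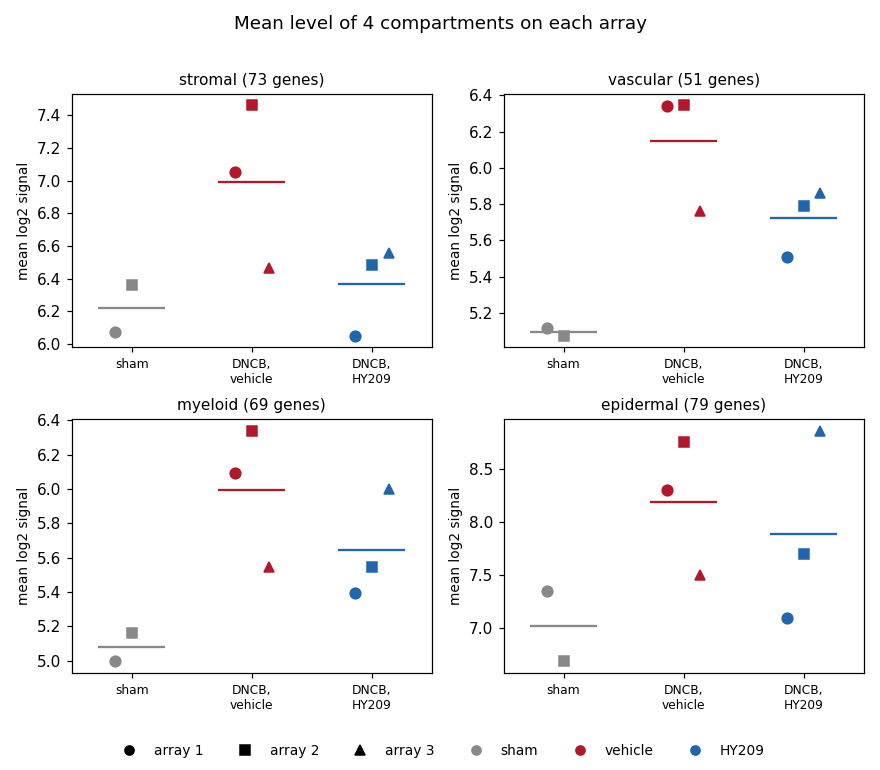
Mean log2 signal of the measured genes of each compartment on each array (y axis), by group (x axis). Symbols are arrays and horizontal lines are group means. Vehicle array 3 lies with the HY209 arrays for stromal genes (6.47) and between them for vascular and myeloid genes, and HY209 array 3 is the highest array for epidermal genes (8.86).

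Collagen chains, which form the fibres of the dermis, were the list with the lowest median. All 13 measured of 14 had a difference below 0, with a median of -0.88, against 43.0% of all genes below 0. The groups did not overlap for 6 (46.2%), against 2.17% of all genes lower without overlap. Col3a1, the fibrillar collagen of young and healing dermis, had log2 signals of 11.998, 12.36 and 11.45 with vehicle and 10.46, 11.22 and 10.88 with HY209. All HY209 arrays lay below all vehicle arrays, with the smallest gap between vehicle array 3 and HY209 array 2. The difference was -1.08 (SE 0.34, 95% interval -1.85 to -0.32), and its 2 probe sets gave -1.11 and -1.08. Col1a1, the main chain of type I collagen, stood at 10.23, 10.06 and 9.86 against 8.44, 9.39 and 9.31. The groups did not overlap here either, and HY209 array 1 lay lowest by almost a log2 unit (difference -1.005, SE 0.45, interval -2.02 to 0.01).

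The partner chain Col1a2 and the chains of type V collagen, which regulate fibril width, were named after their values were seen. Col1a2 had 11.50, 11.83 and 11.12 with vehicle and 10.28, 10.78 and 10.46 with HY209, again without overlap (difference -0.97). On the sham arrays Col1a2 stood at 11.46 and 12.75, above every HY209 array. Col3a1 stood at 11.14 and 12.20 in sham, and Col1a1 at 8.52 and 10.37. The mean of the whole collagen list was 6.92 and 7.48 in sham, below the vehicle arrays at 8.57, 8.72 and 7.98. Col5a1 differed by -1.02, with its 3 probe sets from -1.02 to -0.40, and Col5a2 by -1.14, both without overlap. Col12a1, a chain that coats fibrils, had the largest difference in the list (-1.54), but its groups overlapped. HY209 array 1 at 4.44 lay far below HY209 arrays 2 and 3 at 7.08 and 6.68. At the other end Col16a1 differed by -0.12.

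The promoters of Col3a1 and Col1a2 are shown because these collagen genes lay low on the same arrays while their upstream letters differ. Each is the 250 bases before the annotated start, from RefSeq (GRCm38.p6), plus strand, 5′ to 3′. Capitals mark every match on either strand to 3 common promoter motifs, namely the TATA box (searched as TATAAA), the CCAAT box (searched by those letters) and the GC box (searched as GGGCGG), none of which overlapped another here. Col3a1 lies at chr1:45311288-45311537 and Col1a2 at chr6:4505368-4505617.
Col3a1: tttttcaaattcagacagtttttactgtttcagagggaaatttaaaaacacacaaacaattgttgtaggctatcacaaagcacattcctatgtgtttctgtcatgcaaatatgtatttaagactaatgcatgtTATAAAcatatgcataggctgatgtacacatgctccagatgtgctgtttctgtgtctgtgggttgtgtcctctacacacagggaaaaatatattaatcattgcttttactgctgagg
Col1a2: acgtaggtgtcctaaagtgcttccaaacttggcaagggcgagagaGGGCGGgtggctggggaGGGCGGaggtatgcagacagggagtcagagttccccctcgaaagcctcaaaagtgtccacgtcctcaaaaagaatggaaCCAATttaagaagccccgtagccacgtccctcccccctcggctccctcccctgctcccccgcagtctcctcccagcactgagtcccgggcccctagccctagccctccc
The Col3a1 window held 1 match to the TATA letters, from base 134 of the 250, and none to the others. The Col1a2 window held 2 matches to the GC letters, from bases 46 and 63, and 1 to CCAAT, from base 142. Among 32851 mouse promoter windows of this length, 12.4% held a match to the TATA letters, 33.9% to CCAAT and 32.7% to the GC letters, anywhere on either strand. These are matches of letters wherever they lie in the window, and neither their use as promoter elements nor binding was measured.

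The other matrix lists lay on the same side. Of 21 measured matrix glycoproteins and proteoglycans, 20 were below 0 (median -0.58), and 2 did not overlap. Mfap5, a microfibril protein of elastic fibres, was named for the largest absolute moderated t among them, but it passed the filter only through vehicle arrays 1 and 2. It stood at 5.38, 5.84 and 3.96 with vehicle and 4.002, 3.63 and 4.01 with HY209 (difference -1.18, SE 0.41, interval -2.11 to -0.25). Vehicle array 3 fell within the HY209 range, which itself lay near the medians of the DNCB arrays (4.07 to 4.19), where log2 differences are approximate. Tenascin C (Tnc), a matrix protein of wounds, stood at 9.001, 10.20 and 7.63 against 6.74, 8.34 and 8.29. The groups overlapped, and the interval ran from -2.58 to 0.28 around a difference of -1.15. Without vehicle array 2 the difference was -0.53, without vehicle array 3 it was -1.81, and with array weights it was -0.36. The proteoglycan lumican (Lum, 8.04, 8.34 and 6.95 against 6.83, 6.70 and 6.66) and fibronectin (Fn1, 7.64, 7.81 and 6.83 against 6.71, 6.81 and 6.70), both named after their values were seen, were the genes without overlap. On vehicle array 3 both lay within 0.2 of the highest HY209 array.

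Enzymes that process collagen and genes of fibroblasts were lower in the mean as well. All 9 processing and crosslinking genes were below 0 (median -0.55). Pcolce, which speeds the trimming of procollagen, had 7.74, 8.17 and 6.62 with vehicle and 6.12, 6.31 and 6.98 with HY209 (difference -1.04, SE 0.43, interval -2.03 to -0.06). Here HY209 array 3 lay above vehicle array 3. Of 13 fibroblast identity genes 12 were below 0 (median -0.58), and none was free of overlap. Pdgfra, the receptor that marks dermal fibroblasts, had 5.98, 7.37 and 4.88 against 4.86, 4.87 and 5.43 (difference -1.03, SE 0.53, interval -2.22 to 0.16). Vehicle array 3 lay at the level of HY209 arrays 1 and 2, and without vehicle array 2 the difference was -0.38. Pi16, a marker of adventitial fibroblasts, had 5.89, 6.89 and 5.12 against 5.22, 4.76 and 5.07 (difference -0.95, SE 0.40, interval -1.85 to -0.05, and -0.49 without vehicle array 2).

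All 17 measured matrix proteases and inhibitors were below 0 (median -0.64), and 3 did not overlap. Plat, tissue plasminogen activator, had the largest moderated t of this list. It stood at 5.67, 6.24 and 5.80 with vehicle and 5.20, 5.16 and 5.42 with HY209 (difference -0.64, SE 0.20, interval -1.09 to -0.20). All HY209 arrays were below all vehicle arrays, including vehicle array 3, although its other probe set gave -0.01. The other genes without overlap, named after their values were seen, were the protease Adam12 (-0.99) and the urokinase receptor Plaur (-0.45). The collagenase Mmp13 had the largest difference in the list (-1.32) with wide overlap. HY209 array 1 stood at 3.76 and HY209 array 2 at 7.33. Vehicle array 2 was the highest vehicle array for 16 of these 17 genes.

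**Figure D2:**
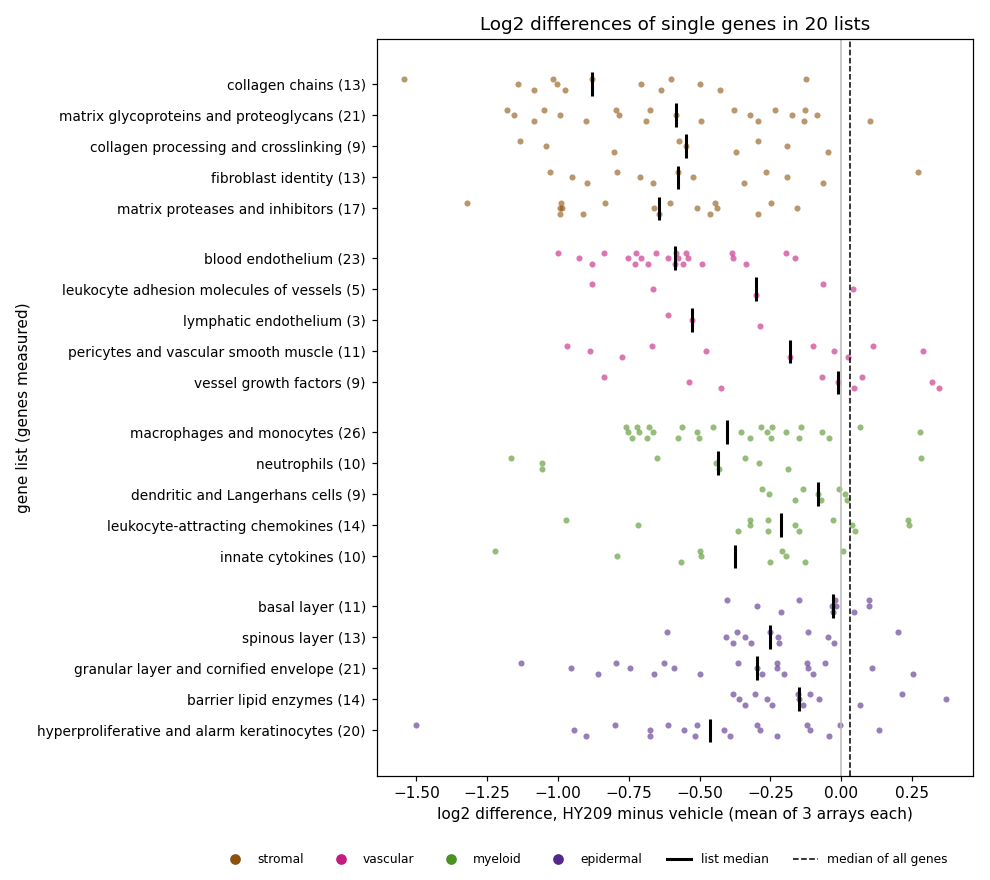
Log2 difference of each measured gene, HY209 minus vehicle (x axis), in 20 lists (y axis, with the number of genes measured). Thick lines are list medians and the dashed line is the median of all 12420 genes (0.03). Collagen chains have the lowest median (-0.88), and vessel growth factors (-0.01) and basal layer genes (-0.03) lie near the median of all genes.

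Vascular genes were the compartment with the largest share of genes without overlap. Of 61 listed genes 51 were measured, 8 lay below the filter and 2 had no probe set listed under their symbol alone. The difference was below 0 for 43 of 51, with a median of -0.54, and 15 (29.4%) did not overlap, all lower with HY209, against 43.0% of all genes below 0 and 2.17% lower without overlap. The 15 include Vegfc and the 51 also include Kcnj8, both of which passed the filter only through vehicle arrays. The mean log2 signal was 6.34, 6.34 and 5.76 on vehicle arrays 1 to 3 and 5.51, 5.79 and 5.86 on HY209 arrays 1 to 3, beside 5.12 and 5.07 in sham. Vehicle array 3 lay between HY209 arrays 1 and 2, and every DNCB array lay above both sham arrays. Vehicle array 3 was below the highest HY209 array for 30 of the 51 genes. With each array left out in turn the median ran from -0.65 to -0.40. Of 20 genes with several probe sets past the filter, 15 had all of them below 0 and 2 had them on both sides.

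Genes of the endothelium itself lay lower in the mean. All 23 measured blood endothelial genes were below 0 (median -0.59), and 9 did not overlap. Cdh5, the cadherin of endothelial junctions, had 7.48, 7.57 and 6.60 with vehicle and 5.80, 6.39 and 6.47 with HY209 (difference -0.9996, SE 0.30, interval -1.68 to -0.32). The groups did not overlap, and vehicle array 3 was 0.13 above the highest HY209 array. Pecam1, an adhesion molecule of the same junctions, had 6.01, 6.31 and 5.03 against 4.64, 5.12 and 5.53 (difference -0.68, SE 0.35, interval -1.47 to 0.10, and -1.06 without vehicle array 3 or -0.42 without vehicle array 2). Vehicle array 3 lay among the HY209 arrays for this gene. Kdr, the main receptor for the growth factor VEGF-A, had 6.36, 6.05 and 6.13 against 5.80, 6.02 and 5.57, without overlap but with a gap of only 0.03 (difference -0.38, SE 0.19, interval -0.81 to 0.04). Other endothelial genes without overlap, named after their values were seen, included the receptor phosphatase Ptprb (-0.84), the sphingosine receptor S1pr1 (-0.66), endoglin (Eng, -0.56) and Egfl7 (-0.49). Flt1, another VEGF receptor, and the transcription factor Erg lay nearest 0 among the 23, at -0.20 and -0.16.

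Adhesion molecules that leukocytes use to leave vessels gave a mixed picture. Of 5 measured, 4 were below 0 (median -0.30) and none was free of overlap. Icam2, which is constitutive on endothelium, had 5.32, 5.35 and 4.54 with vehicle and 3.84, 4.59 and 4.79 with HY209 (difference -0.66, SE 0.30, interval -1.34 to 0.02, and -0.38 without HY209 array 1). The inducible molecules Icam1 and Vcam1, named after their values were seen, differed by -0.06 and 0.04. Lymphatic genes were thinly covered, with 3 of 8 measured. Flt4, the lymphatic receptor for VEGF-C, had 6.15, 5.35 and 5.38 against 5.12, 5.18 and 5.00 (difference -0.53, SE 0.23, interval -1.05 to 0.002, and -0.27 without vehicle array 1). All HY209 arrays were below all vehicle arrays, and vehicle array 1 stood highest.

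Mural cells, the pericytes and smooth muscle that wrap vessels, were split. Of 11 genes 8 were below 0 (median -0.18), and 4 did not overlap. Rgs5, a pericyte marker, had 8.78, 8.41 and 7.98 with vehicle and 6.71, 7.58 and 7.97 with HY209 (difference -0.97, SE 0.43, interval -1.94 to 0.002, and -0.61 without HY209 array 1), with a gap of 0.01 between groups. Mcam, shared by pericytes and endothelium, had 7.56, 7.37 and 7.04 against 6.39, 6.73 and 6.84 (difference -0.67, SE 0.23, interval -1.19 to -0.14). Both groups were tight for Mcam, and vehicle array 3 was again the lowest of its group. The smooth muscle genes Acta2 (9.97, 9.12 and 8.67 against 8.12, 8.37 and 8.61) and Tagln (7.83, 6.68 and 6.90 against 6.65, 6.13 and 6.30) were the other 2 without overlap, named after their values were seen. In contrast the mural receptor Notch3, the proteoglycan Cspg4 and smooth muscle myosin Myh11, also named after their values were seen, differed by 0.02, 0.11 and -0.10. Desmin (Des), which is abundant in skeletal muscle too, differed by 0.29.

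Growth factors of vessels did not share a direction, with 5 of 9 below 0 and a median of -0.01. Vegfc, the lymphatic growth factor, had 4.30, 4.60 and 4.42 with vehicle and 4.01, 3.80 and 3.90 with HY209 (difference -0.54, SE 0.16, interval -0.91 to -0.17). It was measured only because all 3 vehicle arrays lay above their array medians, while every HY209 and sham array lay below, so the lack of overlap supports nothing. Vegfa, the main endothelial growth factor, differed by 0.07 and Angpt2, which loosens vessels, by 0.04 (both named after their values were seen).

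**Figure D3:**
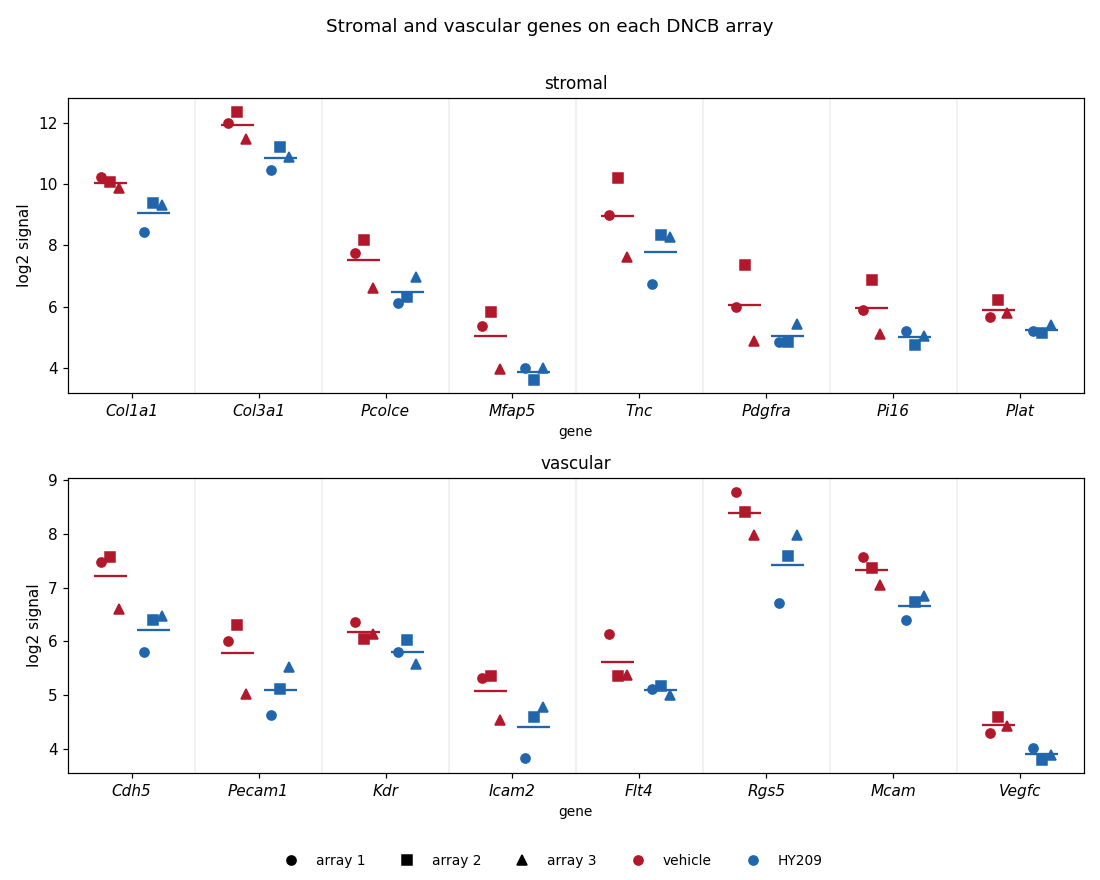
Log2 signal (y axis) of stromal and vascular genes (x axis) on the vehicle arrays and the HY209 arrays. Symbols are arrays and lines are means of 3. The groups do not overlap for Col1a1, Col3a1, Plat, Cdh5, Kdr, Flt4, Rgs5, Mcam and Vegfc, and vehicle array 3 (triangle) is the lowest vehicle array for 12 of the 16 genes. Levels of different genes are not comparable, because probes differ.

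Among all genes tested, those with the lowest moderated t and no overlap were Mecom, Edn1 and Ebf1. Mecom, a transcription factor of stem cells that is also found in endothelium, had 5.28, 5.41 and 4.97 with vehicle and 4.33, 4.38 and 4.62 with HY209 (difference -0.78, SE 0.18, interval -1.18 to -0.37). Edn1, the endothelial peptide that constricts vessels, had 5.50, 5.37 and 5.31 against 4.79, 4.60 and 4.65 (difference -0.71, SE 0.16, interval -1.09 to -0.34). On the sham arrays Edn1 stood at 5.21 and 5.50, near the vehicle level. The vascular list mean was lower in sham (5.12 and 5.07) than with vehicle. The cell type behind the Edn1 signal in whole skin was not tested. Ebf1, a transcription factor of B cells, adipocyte precursors and mural cells, had 5.56, 5.65 and 5.58 against 4.81, 4.70 and 4.49 (difference -0.93, SE 0.23, interval -1.44 to -0.41). For Edn1 and Ebf1 the arrays of each group lay close together. The choice by low moderated t favours such groups and narrow ranges with an array left out. Because the choice also required no overlap, vehicle array 3 had to lie above the HY209 arrays, and these traits support nothing further. With each array left out in turn the difference ran from -0.77 to -0.66 for Edn1, from -0.998 to -0.84 for Ebf1 and from -0.91 to -0.68 for Mecom, and none passed the adjusted test.

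The Edn1 promoter is shown as that of a gene with a low moderated t and tight groups. It is the 250 bases before the annotated start at chr13:42301226-42301475, plus strand, 5′ to 3′, from RefSeq (GRCm38.p6), with the same motifs in capitals.
Edn1: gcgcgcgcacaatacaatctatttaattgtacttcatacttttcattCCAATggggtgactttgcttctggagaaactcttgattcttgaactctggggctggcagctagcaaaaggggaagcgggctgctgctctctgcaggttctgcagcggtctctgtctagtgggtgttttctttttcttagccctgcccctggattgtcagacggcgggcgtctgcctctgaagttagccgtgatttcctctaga
It held 1 match to CCAAT, from base 48, and none to the others.

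The genes with the highest moderated t and no overlap were Alox12e, Edaradd and Pomt1. Alox12e, an epidermal lipoxygenase, had 5.35, 5.88 and 5.74 with vehicle and 6.21, 6.78 and 6.92 with HY209 (difference 0.98, SE 0.26, interval 0.38 to 1.57). Edaradd, the adaptor of the ectodysplasin receptor that acts in hair and gland formation, had 5.45, 5.70 and 6.45 against 7.30, 6.62 and 6.88 (difference 1.06, SE 0.32, interval 0.34 to 1.79). Its probe sets disagreed in size, from 0.06 to 1.06. Pomt1, which starts a sugar chain on dystroglycan, had 4.22, 4.13 and 4.17 against 4.59, 4.66 and 4.71 (difference 0.48, SE 0.15, interval 0.13 to 0.83). That every HY209 array lay above every vehicle array was a condition of the choice and is no further result. None of the 3 genes passed the adjusted test.

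Myeloid genes lay lower in the mean by less, and few were free of overlap. Of 96 listed genes 69 were measured, 18 lay below the filter and 9 had no probe set listed under their symbol alone. The difference was below 0 for 59 of 69, with a median of -0.28, and 4 (5.80%) did not overlap, all lower, against 2.17% of all genes. The mean log2 signal was 6.09, 6.34 and 5.55 on vehicle arrays 1 to 3 and 5.40, 5.54 and 5.998 on HY209 arrays 1 to 3, beside 4.995 and 5.16 in sham. HY209 array 3 lay close to vehicle array 1, and vehicle array 3 lay close to HY209 array 2. The median was -0.47 without vehicle array 3 and -0.45 without HY209 array 3, and 49 to 63 genes were below 0 with each array left out in turn.

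Macrophage and monocyte genes had a median of -0.40, with 24 of 26 below 0 and 2 without overlap. Csf1r, the receptor for the growth factor of macrophages, had 8.49, 8.81 and 7.88 with vehicle and 7.15, 7.67 and 8.30 with HY209 (difference -0.68, SE 0.36, interval -1.51 to 0.14, and -0.98 without HY209 array 3 or -0.40 without HY209 array 1). HY209 array 3 lay above vehicle array 3. C1qb, a chain of complement C1q made by tissue macrophages, had 8.13, 8.63 and 7.54 against 7.29, 7.25 and 7.48 (difference -0.76, SE 0.28, interval -1.39 to -0.13, and -0.49 without vehicle array 2). Its 3 probe sets gave differences from -0.87 to -0.52, and the gap between groups was 0.06. Ccr2, the chemokine receptor of inflammatory monocytes, named after its values were seen, was the other gene without overlap (-0.50). The efferocytosis receptor Mertk differed by 0.28, the highest of the list and likewise named after its values were seen.

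Neutrophil genes had a median of -0.44, with 9 of 10 below 0 and 1 without overlap. S100a8, a subunit of calprotectin that stressed keratinocytes make too, had 10.68, 11.30 and 9.66 with vehicle and 8.08, 9.88 and 10.52 with HY209 (difference -1.06, SE 0.63, interval -2.48 to 0.36). Only HY209 array 1 lay below all vehicle arrays, and without it the difference was -0.35. Without HY209 array 3 it was -1.57. Fpr2, a receptor for bacterial and host peptides, had 5.44, 6.30 and 4.83 against 4.46, 4.005 and 4.93 (difference -1.06, SE 0.37, interval -1.89 to -0.23, and -0.67 without vehicle array 2). The groups overlapped through vehicle array 3, and S100a8 cannot be assigned to neutrophils in whole skin.

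Dendritic and Langerhans cell genes lay near 0, with a median of -0.08 over 9 measured of 16 and no gene free of overlap. Irf8, a transcription factor of dendritic cells, had 4.57, 4.65 and 4.50 with vehicle and 4.18, 4.21 and 4.51 with HY209 (difference -0.28, SE 0.17, interval -0.66 to 0.11). Cd207, the langerin gene of Langerhans cells, lay below the filter. The antigen-presenting genes H2-Ab1, H2-Aa, H2-Eb1 and Cd74, named after their values were seen, differed by -0.08, -0.07, -0.01 and 0.02. The T cell list was near 0 as well (median -0.04 over 8 genes, 3 of them above 0).

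Chemokines and cytokines that act on myeloid cells had medians of -0.21 (10 of 14 below 0) and -0.37 (9 of 10 below 0). Cxcl2, which draws neutrophils, had 4.37, 5.53 and 3.78 with vehicle and 3.04, 3.58 and 4.16 with HY209 (difference -0.97, SE 0.45, interval -1.99 to 0.05, and -0.49 without vehicle array 2). These values lie near the array medians. Il1b, the cytokine released after inflammasome activation, had 6.85, 7.12 and 6.03 against 5.45, 6.06 and 6.10 (difference -0.79, SE 0.30, interval -1.48 to -0.10). Vehicle array 3 lay just below HY209 arrays 2 and 3. The alarmin Il33, named after its values were seen, had the largest difference of the cytokine list (-1.22), with 8.79, 8.78 and 8.07 against 6.03, 8.37 and 7.56. HY209 array 1 lay far below the other HY209 arrays.

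Genes of the inflammasome and of cAMP signalling had list medians near 0, while single members ranged more widely. Gpbar1, the described target of HY209, had no probe set listed under its symbol alone. P2rx7, the ATP-gated channel that triggers the inflammasome, had 3.79, 3.68 and 4.20 with vehicle and 4.42, 3.98 and 3.73 with HY209 (difference 0.15, SE 0.26, interval -0.44 to 0.74). Nlrp3, the inflammasome sensor, had 3.80, 4.14 and 4.03 against 4.17, 4.21 and 4.30 (difference 0.24, SE 0.16, interval -0.12 to 0.60, and 0.15 without vehicle array 1). Both lay at or near the array medians, and Nlrp3 was higher on every HY209 array by a margin of 0.03. The 14 inflammasome and P2X7 genes had a median of -0.06 and a range of -0.79 (Il1b) to 0.56, with 7 on each side of 0. Besides Nlrp3, 1 gene did not overlap, Gsdmd, the pore protein that inflammasomes activate (5.31, 5.35 and 5.25 against 4.78, 4.80 and 5.24, difference -0.36, named after its values were seen). These were 7.14% of the list in each direction, against 2.17% of all genes lower and 2.83% higher. The 23 genes of cAMP signalling had a median of -0.04 and a range of -0.78 to 0.35, with 14 below 0. The groups did not overlap for 2 (8.70%), Nr4a2 and Adcy4, both lower and named after their values were seen, against 2.17% of all genes. The 5 probe sets of Nr4a2 ran from -0.72 to 0.01. The 10 measured genes of type 2 inflammation had a median of -0.09 and the 17 of TGF-beta signalling one of -0.19. Type I interferon response genes were below 0 for 15 of 16 (median -0.23), none without overlap.

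Epidermal genes showed no direction that held across the arrays. Of 101 listed genes 79 were measured, 5 lay below the filter and 17 had no probe set listed under their symbol alone. The difference was below 0 for 69 of 79, with a median of -0.25, but no gene was free of overlap in either direction. The mean log2 signal was 8.31, 8.76 and 7.50 on vehicle arrays 1 to 3 and 7.10, 7.70 and 8.86 on HY209 arrays 1 to 3, beside 7.36 and 6.69 in sham. HY209 array 3 was the highest DNCB array and HY209 array 1 the lowest. The sign of the median turned with single arrays, to 0.08 without vehicle array 2 and to 0.09 without HY209 array 1, where only 31 and 25 of 79 genes were below 0. It was -0.54 without vehicle array 3 and -0.68 without HY209 array 3. The median SD within a group was 0.67 with vehicle and 0.91 with HY209, against 0.29 and 0.23 over all genes tested.

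The layers differed in which arrays stood apart. Basal layer genes, of the dividing cells on the basement membrane, had a median of -0.03 over 11 genes. Krt5, the basal keratin, had 12.16, 12.78 and 12.40 with vehicle and 11.57, 12.90 and 12.82 with HY209 (difference -0.02, SE 0.36, interval -0.85 to 0.81). Lama3, a laminin chain that anchors basal cells, had 6.66, 8.23 and 7.04 against 5.89, 7.65 and 7.17 (difference -0.40, SE 0.50, interval -1.54 to 0.74). HY209 array 1 was the lowest HY209 array for all 11 basal genes. Without HY209 array 1 the differences were 0.41 for Krt5 and 0.10 for Lama3.

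In the spinous layer, where cells begin to cornify, 12 of 13 genes were below 0 (median -0.25). Krt10, the keratin of that step, had 12.27, 13.43 and 10.89 with vehicle and 10.09, 12.08 and 13.31 with HY209 (difference -0.37, SE 0.85, interval -2.30 to 1.57). Each group spanned more than 2 log2 units. Krtdap, a secreted protein of differentiating keratinocytes, had 11.87, 12.25 and 11.17 against 9.57, 11.66 and 12.21 (difference -0.61, SE 0.68, interval -2.15 to 0.92). Without HY209 array 1 these differences were 0.50 and 0.18.

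The granular layer and cornified envelope spread most. HY209 array 3 was the highest HY209 array for all 21 genes, with a mean of 9.08 against 6.25 and 6.19 on HY209 arrays 1 and 2 and 8.26, 7.99 and 6.50 with vehicle. Flg, filaggrin, which bundles keratin and yields the skin's moisturizing factor, had 9.59, 9.51 and 7.20 with vehicle and 7.70, 7.62 and 10.31 with HY209. HY209 array 3 was the highest DNCB array, and HY209 arrays 1 and 2 lay nearer to vehicle array 3. The difference of -0.23 (SE 1.12, interval -2.76 to 2.31) was positive, from 0.15 to 0.23, when any one of vehicle arrays 1 and 2 and HY209 arrays 1 and 2 was left out. Lce1m, of the late cornified envelope proteins, had 6.04, 3.82 and 3.61 against 3.03, 2.70 and 4.89 (difference -0.95, SE 0.98, interval -3.18 to 1.27). Without vehicle array 1 the Lce1m difference was -0.18, and without HY209 array 3 it was -1.63. The intervals of both genes include a log2 difference of 1 in either direction, so these arrays do not exclude a change of that size.

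Barrier lipid enzymes had a median of -0.15, with 11 of 14 below 0. Smpd1, the acid sphingomyelinase that makes ceramide, had 6.09, 6.81 and 6.04 with vehicle and 6.58, 6.13 and 7.34 with HY209 (difference 0.37, SE 0.35, interval -0.42 to 1.16). Without HY209 array 3 the difference was 0.042, and without HY209 array 2 it was 0.65. Keratinocyte genes of hyperproliferation and alarm had a median of -0.46, with 19 of 20 below 0. Krt6b, a keratin of wounded epidermis, had 13.79, 14.06 and 13.44 against 12.54, 13.67 and 13.90 (difference -0.39, SE 0.49, interval -1.50 to 0.72). HY209 array 1 alone lay below all vehicle arrays. Sprr2i, a small proline-rich envelope protein, had 7.10, 8.28 and 5.34 against 4.71, 5.38 and 6.13 (difference -1.50, SE 0.65, interval -2.98 to -0.02, and -0.82 without vehicle array 2 or -2.28 without vehicle array 3). Vehicle arrays 1 and 2 were above every HY209 array, and vehicle array 3 was not.

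**Figure D4:**
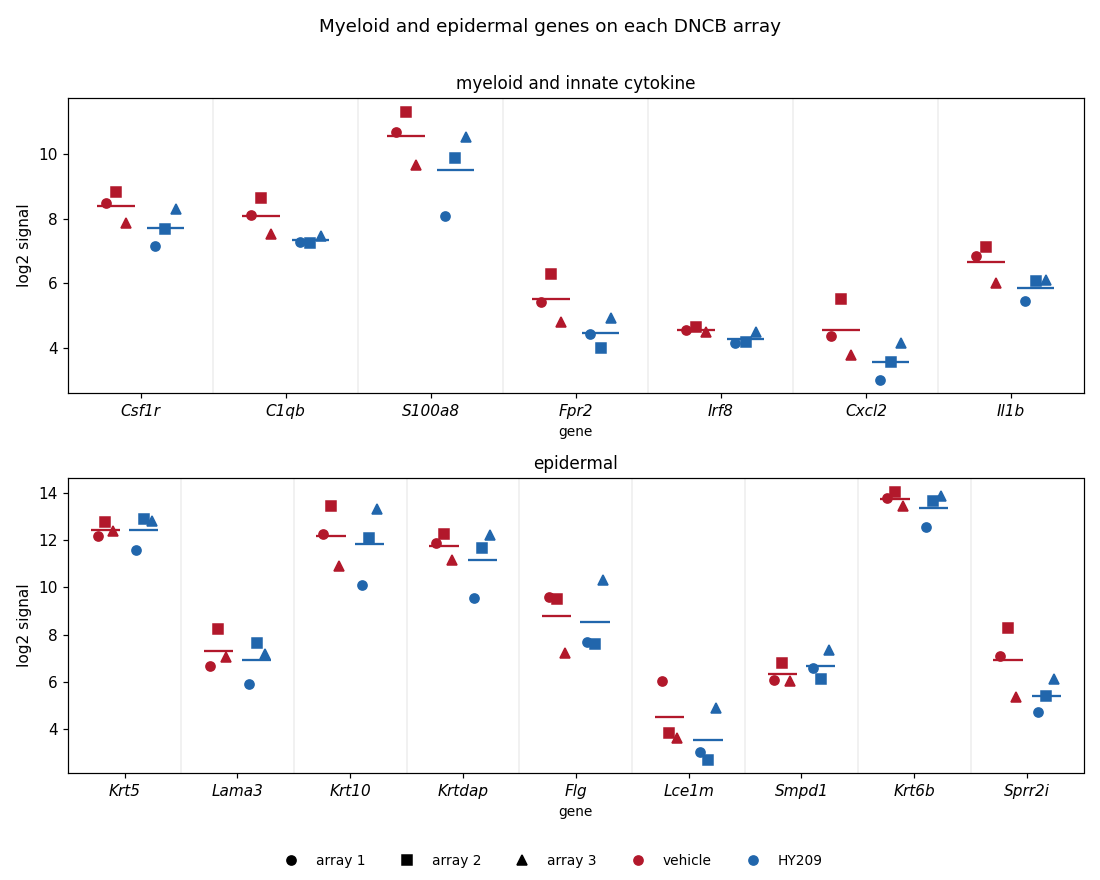
Log2 signal (y axis) of myeloid and epidermal genes (x axis) on the vehicle arrays and the HY209 arrays. Symbols are arrays and lines are means of 3. The groups overlap for every gene except C1qb. HY209 array 3 (triangle) is the highest DNCB array for Flg (10.31) and HY209 array 1 (circle) the lowest for Krt5 (11.57).

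Lists of other cells and of cell division differed between the same arrays. All 27 measured hair follicle genes had a difference above 0 (median 0.89), without a gene free of overlap. Their mean log2 signal was 5.29, 5.46 and 7.13 on vehicle arrays 1 to 3 and 8.12, 6.06 and 6.14 on HY209 arrays 1 to 3, beside 9.20 and 6.74 in sham. HY209 array 1 and vehicle array 3 stood highest of the DNCB arrays, and each was the lowest of its group for stromal and vascular means. HY209 arrays 2 and 3 had lower follicle levels than vehicle array 3. Their stromal means (6.49 and 6.56, against 6.47) and vascular means (5.79 and 5.86, against 5.76) were close to those of vehicle array 3. All 10 melanocyte genes were above 0 too (median 0.89), with 5.08, 5.45 and 6.37 against 7.94, 5.76 and 5.97. Melanocytes that feed the hair shaft lie in the follicle, and the follicle cycles between growth and rest. With the hair follicle level as a covariate the medians were -0.48 for stromal, -0.39 for vascular, -0.18 for myeloid and -0.08 for epidermal genes.

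Skeletal muscle genes, 24 measured, had a median of 0.34, with 21 above 0. The groups did not overlap for 2 (8.33%), both higher, against 2.83% of all genes. Among the 3 genes below 0, the fast myosin Myh4 at -2.38 and the fast-fibre actinin Actn3 at -1.04 were named after their values were seen. The mean log2 signal of the 24 muscle genes was 10.87, 10.38 and 8.95 with vehicle and 10.29, 10.23 and 10.31 with HY209. Vehicle array 3 was the outlying array, and the HY209 arrays were close to each other. With the muscle level as a covariate the stromal median was -0.68 and the vascular median -0.57. With the Gapdh ratio as a covariate they were -0.80 and -0.57, and the myeloid and epidermal medians were -0.41 and -0.46. The part of follicle content, muscle content and RNA quality in these differences was not tested beyond these values.

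Cell cycle genes were above 0 for all 28 measured (median 0.28), and 3 did not overlap (10.7%, against 2.83% of all genes higher without overlap). These were the cyclin gene Ccna2, the spindle motor gene Cenpe and the checkpoint gene Bub1b, named after their values were seen. Ccna2 had 7.07, 7.51 and 7.55 with vehicle and 7.78, 7.78 and 7.65 with HY209 (difference 0.36). The mean over the list was 6.45, 7.17 and 6.96 against 7.00, 7.34 and 7.14, with vehicle array 1 lowest. The lists of adipocytes (4 of 7 below 0), mast cells (3 of 4), B and plasma cells (1 of 3), sebaceous gland (1 of 7) and nerve (4 of 6) were small. Of the 4 mast cell genes 2 did not overlap, both lower, against 2.17% of all genes. These were the protease Cpa3 (-0.28), which passed the filter only through vehicle arrays, and the transcription factor Gata2 (-0.28), while the receptor Kit, which melanocytes share, differed by 0.68 (all named after their values were seen).

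**Figure D5:**
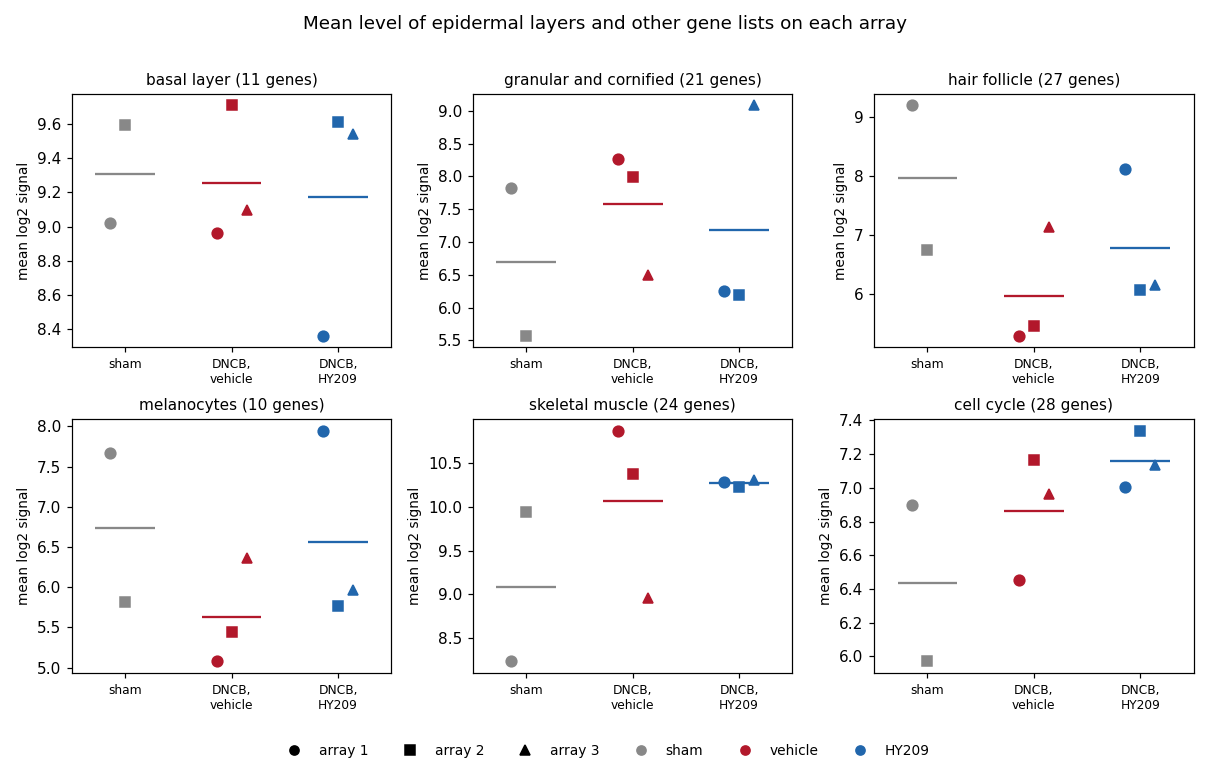
Mean log2 signal of basal layer, granular layer, hair follicle, melanocyte, skeletal muscle and cell cycle genes on each array (y axis), by group (x axis). Symbols are arrays and lines are group means. HY209 array 1 is highest of the DNCB arrays for hair follicle (8.12) and melanocyte genes (7.94), HY209 array 3 for granular genes (9.08), and vehicle array 3 is lowest for muscle genes (8.95).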

How the data were processed

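Total RNA from frozen skin was amplified from the 3' end and hybridised to 1 Affymetrix array per sample, per the labels' protocols. The values are log2 signals as deposited by the authors. Affymetrix Expression Console and MAS5 are named in the submitters' processing notes without versions. Scaling between arrays is not given in these sources. The labels name a smaller array than the 45101 probe sets of the table. Genes were named through the annotation of the larger array, which listed 1 symbol for 34945 probe sets, several for 932 and none for 9160. No detection calls were used.

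A probe set was kept if it lay above its array's median on at least 2 of 8 arrays (24675 kept), and a gene was its brightest probe set (12420 genes). Groups were compared with limma 3.58.1 in R 4.3.3 (lmFit, eBayes with intensity trend, two-sided) over all 8 arrays, with Benjamini-Hochberg adjustment over all genes. SE is the moderated standard error and intervals are 95%. The script was tested on simulated data. Depth is not defined for arrays, and their number limits the precision. Named genes were a fixed set for each compartment, the largest absolute moderated t of each of 20 lists, and the 3 lowest and 3 highest moderated t without overlap. The lists, rule and members were chosen with earlier results of these data known. Alternatives were other normalizations, filters, probe set rules, variance models, covariates, a replicate block and each array left out. Same-numbered arrays deviated together with r of 0.12, 0.28 and -0.60. With 3 arrays in a group these values cannot settle whether the numbers pair the samples, and the fit did not pair them. Promoter sequences came from RefSeq (GRCm38.p6). Figures were drawn with Python 3.11.15.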

Additional observations from a re-analysis of the deposited data

How the results depend on the processing

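No gene was called under any of 24 alternatives, and the smallest adjusted p of a named gene was 0.224. Of 40 named genes, 33 kept their sign throughout. Counts at an unadjusted p under 0.05 moved most. From 130 lower and 31 higher, they went to 222 and 56 without a filter and 485 and 201 over all probe sets. Both of these settings tested more features. Over the 45037 probe sets the shares were 1.08% and 0.446%, against 1.05% and 0.250% of the 12420 genes. The counts were 717 and 709 with array weights (whose estimate did not converge) and 427 and 137 with the Gapdh covariate. They were 296 and 87 with the spike-in covariate, 208 and 94 with the muscle covariate, and 81 and 105 with the hair follicle covariate. With each array left out they ran from 43 to 386 and from 14 to 158. Genes without overlap numbered 514 lower without a filter. Over all probe sets 1266 were lower (2.81%) and 1155 higher (2.56%), against 2.17% and 2.83% of genes in the main fit. With an array left out the counts ran from 269 to 1030 and from 351 to 1746, where fewer arrays make separation easier. Counts of compartment genes below 0 with an array left out, an alternative added after seeing the data, ran from 64 to 72 (stromal), 41 to 48 (vascular), 49 to 63 (myeloid) and 25 to 75 (epidermal). Signs turned with array weights for Krt10 (0.18), Krt5 (0.50) and Lama3 (0.53), and with the hair follicle covariate for Krt10 (0.031), Krt5 (0.26) and Krt6b (0.073). The cause was not tested. With an array left out, differences ran from -1.11 to 0.23 for Flg, -1.11 to 0.50 for Krt10, -0.26 to 0.41 for Krt5, -0.66 to 0.022 for Krt6b, -0.78 to 0.10 for Lama3, -1.15 to 0.18 for Krtdap and -0.036 to 0.31 for P2rx7. Over all probe sets the medians were -0.37 (stromal), -0.34 (vascular), -0.18 (myeloid) and -0.18 (epidermal), and with array weights the epidermal median was -0.06. With the replicate number as a block 0 genes were called, with 97 lower and 23 higher at an unadjusted p under 0.05. Whether the numbers pair the samples is not known. The number of arrays, and signals near the array medians, limit all values.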
